A study of Mus musculus with 9 samples.

Results

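Transmitter is released when a synaptic vesicle fuses with the presynaptic membrane, and 37 genes of that release machinery were followed in the hypothalamus of mouse pups. The members were the rows of the deposited gene table that carry one of 37 listed gene names. All 37 names were found among the 54532 genes of the table, and all 37 passed the filter on low counts that left 17546 genes for testing. In the 9 libraries the members together held between 1.065% and 1.247% of all counts.

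Vesicle fusion is driven by the SNARE proteins, which zip a vesicle protein (a VAMP, or synaptobrevin) together with the membrane proteins SNAP25 and syntaxin. Synaptotagmins sense the calcium that enters with an action potential, complexins clamp and assist the SNARE complex, and UNC13 and CAPS proteins make docked vesicles ready to fuse. RIM, bassoon and piccolo form the active zone where this happens, and synapsins, synaptophysin and SV2 proteins belong to the vesicle itself. In the hypothalamus the same machinery serves fast transmitters, while CAPS proteins and several synaptotagmins also act on the dense-core vesicles that carry neuropeptides.

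All libraries came from wild type male ICR mice, an outbred stock, sampled on postnatal day 21, with 3 libraries in each of 3 groups. Dams of the LP group ate a low-fat diet with 10% of kcal from fat, and their pups received PBS, a buffered saline. Dams of the HP group ate a high-fat, high-sucrose diet with 45% of kcal from fat, and their pups also received PBS. HA pups had dams on that same high-fat, high-sucrose diet and received 4-PBA (4-phenylbutyric acid), known as a chemical chaperone and as a histone deacetylase inhibitor. Pups were injected once a day from postnatal day 4 to day 16, and litters were set to 10 pups. Dams went on their diet at an age of 5 weeks, 5 weeks before mating, and kept it through gestation and lactation. The maternal diet is addressed by HP against LP, the compound under the maternal high-fat diet by HA against HP, and both together by HA against LP. Whether litters were shared within a group is not given by the labels, so the p-values rest on the spread among these libraries, part of which may be technical.

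Library totals ran from 18226924 to 21823961 counts. Markers of the tissue were present in every library, with Nkx2-1, a transcription factor of the ventral hypothalamus, at 35.0 to 46.4 CPM (counts scaled to a common library size by the TMM method) and the vasopressin gene Avp at 385 to 726 CPM. Other hypothalamic markers were less even. The orexin gene Hcrt stood at 59.8, 51.4 and 54.3 CPM in HP replicate 2, HA replicate 2 and HA replicate 3. The remaining libraries had 91.8 to 152.6 CPM of Hcrt. Pomc stood at 79.3, 85.9 and 87.5 CPM in those same libraries, where the remaining ones had 48.3 to 63.5 CPM. The part of such differences in the members' values was not tested. The cortical marker Emx1 lay between 0 and 0.267 CPM. Some libraries stood apart in markers of neighbouring tissue. The summed level of 8 meningeal fibroblast genes reached 3280 CPM for LP replicate 3 and 5796 CPM for HA replicate 3, where the remaining libraries had 110.1 to 621.7 CPM. That of 8 striatal genes reached 382.4 CPM for LP replicate 1 and 503 CPM for LP replicate 2, where the remaining 7 libraries had 220.4 to 251.4 CPM. The part of these tissues in the results was not tested. For members whose estimate is printed, values without HA replicate 3, or without LP replicates 1 and 2 together, were compared with it. Such a value is added where it moved by over 1.5 times or changed sign. Values without LP replicate 3 alone are not given for every member. A fit without LP replicates 1 and 2 leaves 1 LP library, LP replicate 3, which is itself high in meningeal genes and is then assumed to vary like the libraries of the other groups. In bulk RNA, fewer neurons and less RNA of a gene per neuron cannot be told apart. The codes in the library titles, whose meaning the labels do not give, also differ between the diets. They were Lg42 and Lg63 in LP and Hg43 and Hg13 in HP and HA, so in any comparison with LP the code and the diet cannot be told apart.

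Sequence upstream of a pair of members is shown because these genes mark the range of the results. Syt6 had the smallest p-value of the members in both comparisons with LP. Of the 30 members with a RefSeq promoter window, Syn1 was the only one with a full cyclic AMP response element there. Both stretches are from the RefSeq promoter windows of GRCm38.p6, which span an annotated transcription start and mostly lie upstream of it. Syt6 has several such windows, and part of the first is shown. Both stretches give only part of a window. The stretches are written 5′ to 3′ along the gene's strand. Capitals mark the motifs named here. In Syt6 (chr3:103574995-103575230, plus strand, just upstream of the first base of the deposited gene) they mark a GC box, GGGCGG, at bases -69 to -64 from the RefSeq start. In Syn1 (chrX:20921019-20921168, minus strand) they mark TTCAGCACC, the left part of the element bound by the repressor REST, at -232 to -224, and TGACGTCA, the cyclic AMP response element, at -159 to -152.
Syt6: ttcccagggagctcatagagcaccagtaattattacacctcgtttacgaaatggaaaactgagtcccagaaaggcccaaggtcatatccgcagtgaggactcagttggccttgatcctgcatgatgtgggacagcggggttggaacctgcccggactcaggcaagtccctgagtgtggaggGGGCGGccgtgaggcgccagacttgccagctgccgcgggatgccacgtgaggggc
Syn1: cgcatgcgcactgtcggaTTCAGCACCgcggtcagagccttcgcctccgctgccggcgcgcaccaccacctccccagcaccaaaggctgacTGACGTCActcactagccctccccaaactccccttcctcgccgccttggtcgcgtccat

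RefSeq windows were at hand for 30 of the 37 members, as 41 windows among 32851, and each motif was searched on both strands. TGACGTCA stood in 1.79% of all windows and, of the members, in Syn1. TTCAGCACC stood in 0.371% of all windows and in the members Syn1 and Unc13a. GCGTGGGCG, the EGR motif, stood in 0.612% of all windows and in Unc13a. TATAAA stood in 13.6% of all windows and in 2 windows of Sv2b. GGGCGG, searched after the other values were known, stood in 35.7% of all windows and in 26 of the 41 member windows (63.4%). The median GC content was 62.0% in member windows and 52.7% in all windows. These matches describe letters, not binding.

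Levels of different genes were compared per length, as the FPKM values the authors deposited. The members spanned nearly the whole range of expressed genes. Rab3a, the small GTPase that marks vesicles for docking, was highest with a mean of 221 FPKM over the 9 libraries. The synaptotagmin gene Syt11 followed at 205 FPKM, then the synaptobrevin gene Vamp2 at 189, the vesicle glycoprotein gene Sv2a at 166, the synaptophysin gene Syp at 157 and Snap25 at 152 FPKM. Sncb, which encodes beta-synuclein, stood at 123 FPKM and Cplx1 at 120 FPKM. Neighbours in this upper range were not separated, since their ranges over the 9 libraries overlapped.

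In the order of the 37 means, ranges of neighbours stood clear of each other in only 5 places. These were below Rims3 (49.8 FPKM), below Cadps (21.0 FPKM), below Syt7 (16.8 FPKM), below Syt6 (6.58 FPKM) and below Unc13b (0.970 FPKM). At the low end were Syn3 at 1.06 FPKM, Unc13b at 0.970 FPKM and Cplx3, a complexin best known from retinal ribbon synapses, at 0.219 FPKM. Cplx3 rested on 6 to 24 counts per library. The FPKM lengths count every exon of a gene. With the longest protein-coding transcript in their place, Snap25 came first at 489.6 CPM per kilobase, ahead of Vamp2, Syp and Rab3a.

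**Figure D1:**
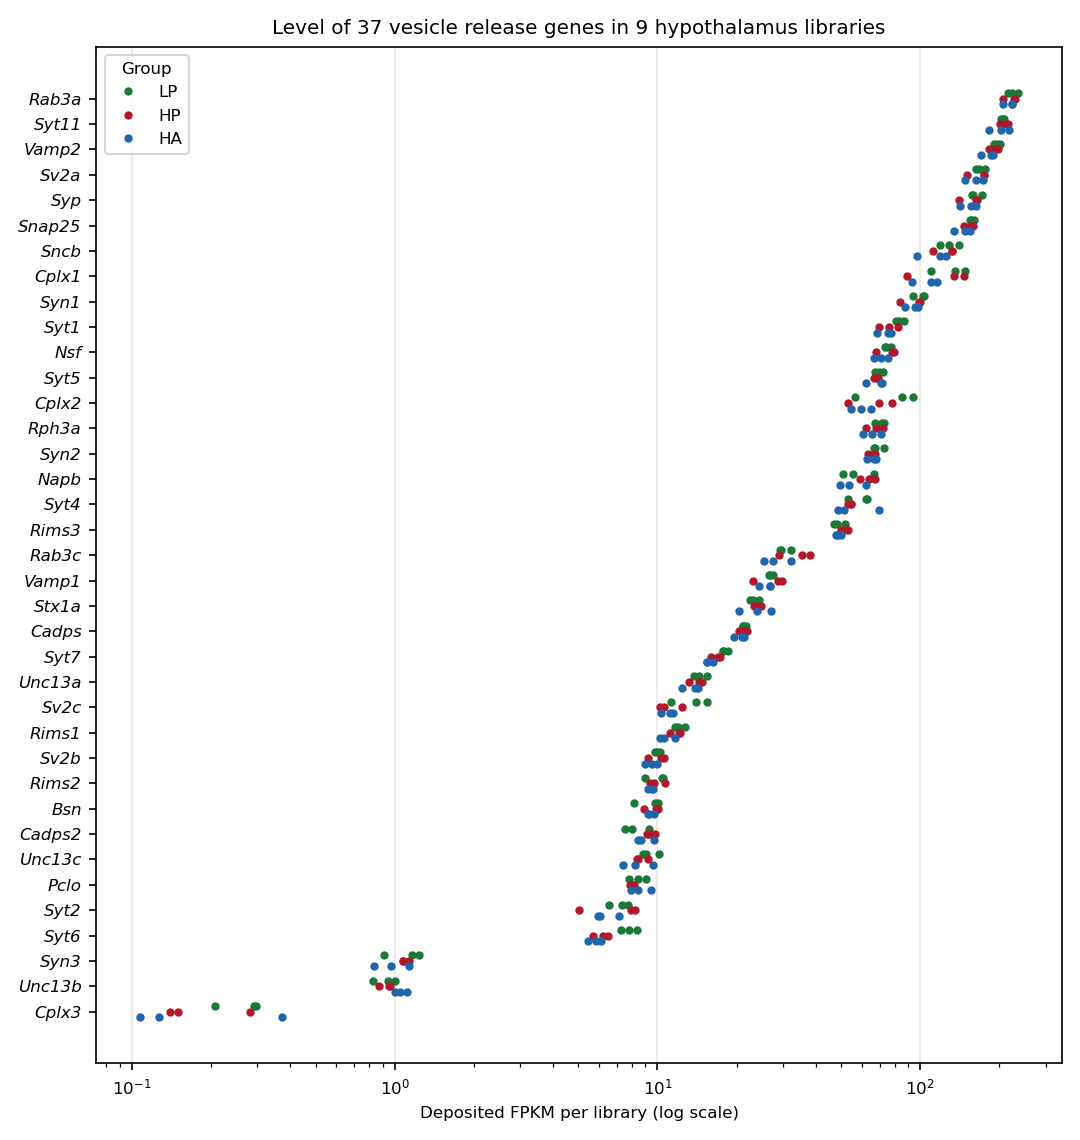
Deposited FPKM (log scale) of each of the 37 genes in each library, coloured by group and ordered by the mean. Levels run from 221 FPKM for Rab3a to 0.219 FPKM for Cplx3, and the 3 groups lie on top of each other for most genes, with LP to the right for Syt6.

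Within families, 1 form often dominated per length. These ratios use the lengths over every exon. Vamp1, the other synaptobrevin gene, stood at 0.126 to 0.155 times the FPKM of Vamp2. With the longest protein-coding transcript as the length, Vamp1 had 90.3 and Vamp2 328 CPM per kilobase, so the size of this ratio depends on the length used. Syt2, the fast calcium sensor of brainstem and spinal synapses, stood at 0.0721 to 0.105 times Syt1, its forebrain counterpart. Sv2b stood at 0.0529 to 0.0689 times Sv2a and Rab3c at 0.124 to 0.167 times Rab3a. The small active zone protein gene Rims3, which lacks the RAB3-binding part of the long RIMs, stood at 4.02 to 4.66 times Rims1. Cplx1 stood at 1.57 to 1.96 times Cplx2 in all 9 libraries.

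No member passed an adjusted p of 0.05 in any of the 3 comparisons by edgeR's quasi-likelihood F test with Benjamini-Hochberg adjustment over all 17546 genes. For HP against LP, 0 of 37 members were called, where 0.0114% of all genes were (2 genes). At an unadjusted p under 0.05, 1 member was higher and 3 were lower in HP, where 6.12% of all genes passed (3.12% higher and 3.00% lower). For HA against HP, 0 of 37 were called against 0.0114% of all genes (2 genes), with 0 higher and 1 lower at the unadjusted level, which 5.42% of all genes passed (3.00% higher and 2.42% lower). For HA against LP, 0 of 37 were called against 0.00% of all genes (0 genes), with 0 higher and 5 lower at the unadjusted level, which 6.51% of all genes passed (3.06% higher and 3.45% lower). DESeq2 called 0, 0 and 1 members in the same order, the 1 being Syt6, where it called 0.144%, 0.0479% and 0.129% of the genes it adjusted (32, 8 and 27 genes). It put 5, 2 and 6 members under an unadjusted p of 0.05, as it did 3.87%, 4.27% and 4.43% of those genes.

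The intervals bound how large a difference these libraries could hide. The 95% interval of the fold change lay wholly between 0.8 and 1.25 for 26 of the 37 members in HP against LP, for 27 in HA against HP and for 24 in HA against LP. Cadps had the narrowest interval and Cplx3 the widest in all 3 comparisons. For Cplx3 in HP against LP the interval ran from -1.58 to 0.65 on the log2 scale, so a large change of this gene was not detectable at its depth.

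**Figure D2:**
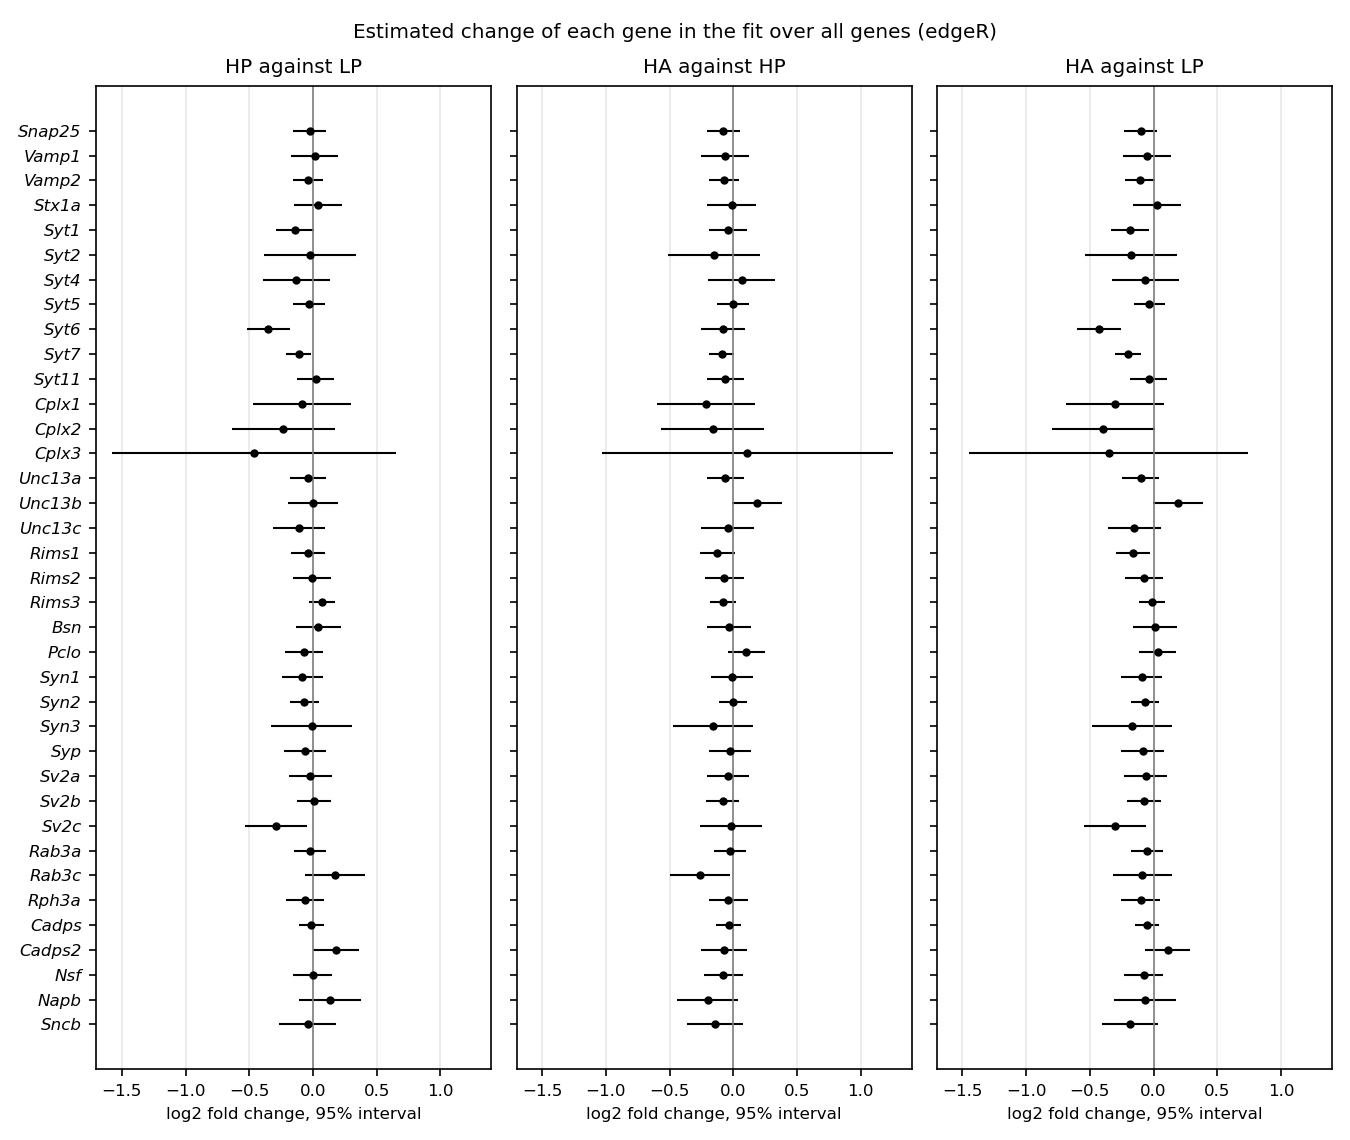
Log2 fold change of each member with its 95% interval in the 3 comparisons, from 1 fit over all genes. Most intervals cross 0, Syt6 lies at -0.35 in HP against LP and -0.43 in HA against LP, and Cplx3 has the widest interval in each panel.

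Among the SNAREs, the estimates for Vamp2 and Snap25 were all within 0.11 log2 units of 0. Vamp2, the synaptobrevin of most brain vesicles, stood at 766, 729 and 746 CPM in LP libraries, at 754, 696 and 735 CPM in HP libraries and at 719, 707 and 653 CPM in HA libraries. The LP and HP libraries overlapped, and all 3 HA libraries lay below all 3 LP libraries. The estimate for HA against LP was -0.11 (SE 0.052, adjusted p 0.791 by edgeR with Benjamini-Hochberg adjustment). Snap25, the membrane SNARE, lay between 1053 and 1089 CPM in LP and between 921 and 1051 CPM in HA, without overlap by TMM but with overlap by library totals, and with an estimate of -0.10 (SE 0.059, adjusted p 0.816 by edgeR). Without HA replicate 3 the estimates for HA against LP were -0.065 for Vamp2 and -0.049 for Snap25. Vamp1 lay between 234 and 303 CPM over all 9 libraries and Stx1a, which encodes syntaxin-1A, between 55.0 and 72.2 CPM, with overlapping groups.

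After fusion the SNARE complex is pulled apart by the ATPase NSF and its SNAP adaptors. Nsf stood at 647, 623 and 615 CPM in LP libraries, at 654, 565 and 665 CPM in HP libraries and at 633, 592 and 560 CPM in HA libraries, and the groups overlapped. Napb, the gene of the brain adaptor beta-SNAP, ranged from 349 to 475 CPM with overlapping groups. Both had unadjusted p-values above 0.05 in all 3 comparisons.

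In both comparisons with LP the member of smallest p-value was a synaptotagmin, Syt6, whereas in HA against HP it was Rab3c. Syt6, a synaptotagmin whose isoforms differ in whether they are held in membranes and which is known from the sperm acrosome as well as brain, stood at 45.4, 49.2 and 42.3 CPM in LP. It stood at 33.1, 36.3 and 38.1 CPM in HP and at 31.9, 35.7 and 34.3 CPM in HA. All 3 LP libraries lay above all 6 libraries from pups of dams on the high-fat diet, and HP and HA overlapped.

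The estimate for Syt6 was -0.35 for HP against LP (SE 0.077, 95% interval -0.52 to -0.18, fold 0.785, adjusted p 0.464 by edgeR) and -0.43 for HA against LP (SE 0.077, 95% interval -0.60 to -0.26, fold 0.744, adjusted p 0.404). In HA against LP this was the gene at rank 7 of 17546 by p-value. DESeq2 gave an adjusted p of 0.0845 for HP against LP and of 0.0061 for HA against LP, and edgeR without the filter on low counts gave 0.017 for HA against LP. The call for HA against LP therefore depended on the tool and the filter. LP replicates 1 and 2, the libraries with the high striatal markers, were 2 of the 3 LP libraries. Without them the estimates were -0.24 for HP against LP and -0.32 for HA against LP. These rest on LP replicate 3 alone, which had more Syt6 than each HP and HA library. Its striatal sum of 235.5 CPM lay inside the range of HP and HA, and its meningeal sum was 3280 CPM. The part of striatal or meningeal tissue in the Syt6 values was not tested.

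Syt7, the slow, high-affinity calcium sensor of facilitation, asynchronous release and dense-core vesicle fusion, stood at 136, 130 and 129 CPM in LP libraries, at 124, 116 and 126 CPM in HP libraries and at 118, 112 and 113 CPM in HA libraries. No LP library overlapped with HP or HA, while HP and HA overlapped. The estimates were -0.11 for HP against LP (SE 0.044, adjusted p 0.807), -0.20 for HA against LP (SE 0.044, adjusted p 0.645) and -0.090 for HA against HP (SE 0.044, adjusted p 0.84) by edgeR.

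Syt1, the main sensor for fast synchronous release in forebrain neurons, stood at 728, 694 and 678 CPM in LP libraries, at 685, 584 and 637 CPM in HP libraries and at 644, 630 and 576 CPM in HA libraries. HA lay below LP without overlap, and HP overlapped with both. The estimate for HA against LP was -0.18 (SE 0.067, adjusted p 0.756 by edgeR), and -0.13 without HA replicate 3. Syt2 was among the least steady members, at 56.1, 59.3 and 49.9 CPM in LP libraries, at 63.2, 38.6 and 61.0 CPM in HP libraries and at 54.6, 46.3 and 45.5 CPM in HA libraries. Its lowest and highest library were both in HP.

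Syt11, a synaptotagmin that does not bind calcium and acts in endocytosis, was the synaptotagmin of highest FPKM and stood at 1082, 1087 and 1056 CPM in LP libraries, at 1123, 1045 and 1107 CPM in HP libraries and at 1133, 1053 and 952 CPM in HA libraries. Its groups overlapped. Syt4, which sits on dense-core vesicles, ranged from 191 to 273 CPM, and Syt5, a calcium-binding form, from 148 to 171 CPM, with overlapping groups. Of the 7 member synaptotagmins, 6 had estimates below 0 in HP against LP (median -0.11), 6 in HA against HP (median -0.062) and 7 in HA against LP (median -0.17). Groups did not overlap for 2, 0 and 3 of the 7, where 11.8%, 11.8% and 10.9% of all genes had none. The synaptotagmins that are not members did not all lie below 0. In HA against LP, Syt3, Syt13 and Syt17 had estimates of -0.060, -0.13 and -0.26, and Syt9, Syt10 and Syt12 of 0.063, 0.14 and 0.074, each with an adjusted p above 0.05 by edgeR.

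**Figure D3:**
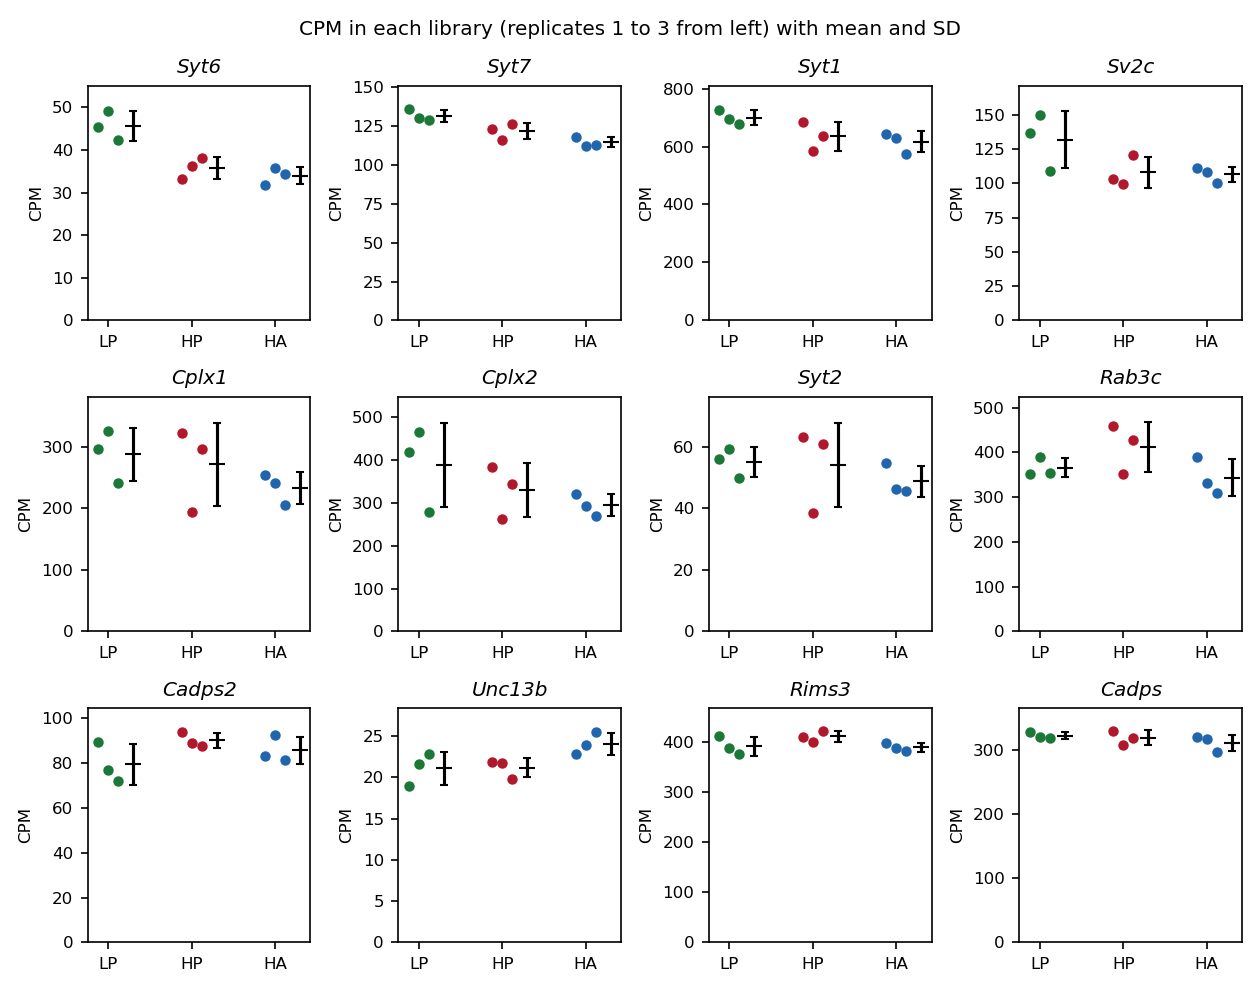
CPM of 12 members in each library (points, replicates 1 to 3 from left), with the mean and SD of each group (n = 3) beside them on axes that start at 0. The LP points of Syt6 and Syt7 lie above all HP and HA points, whereas Cplx1, Cplx2 and Syt2 scatter widely within groups and Cadps hardly at all.

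Complexins, short helical proteins that bind the assembled SNARE complex, varied most among the libraries. Cplx1 stood at 297, 326 and 241 CPM in LP libraries, at 323, 195 and 296 CPM in HP libraries and at 255, 241 and 205 CPM in HA libraries. Cplx2 stood at 420, 467 and 278 CPM in LP libraries, at 385, 263 and 344 CPM in HP libraries and at 321, 294 and 270 CPM in HA libraries. For both genes the lowest library was HP replicate 2 and the highest LP replicate 2, and all groups overlapped.

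The SD of log2 CPM over the 9 libraries was 0.297 for Cplx2 and 0.273 for Cplx1, above that of 99.2% and 99% of the genes within 1 log2 unit of their level. The LP libraries with most Cplx2 and Cplx1 were replicates 1 and 2, also the libraries highest in striatal markers, and the part of striatal tissue was not tested. Without them the Cplx2 estimates went from -0.23 to 0.25 in HP against LP and from -0.40 to 0.082 in HA against LP, and the Cplx1 estimates from -0.087 to 0.17 and from -0.30 to -0.052. LP replicate 3 held the least of both genes in LP, at 278 CPM of Cplx2 and 241 CPM of Cplx1. Leaving it out in their place would raise the LP mean of both, and the estimates of that fit are not given. The log2 ratio of Cplx1 counts to Cplx2 counts ranged from -0.52 to -0.20 over the libraries. It is not divided by gene length, unlike the FPKM ratio given earlier, in which Cplx1 was the higher. The groups overlapped in this count ratio, and the smallest exact permutation p of its 3 comparisons was 0.4.

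Among the priming factors, Cadps, the CAPS1 gene needed for dense-core vesicle priming, stood at 329, 321 and 319 CPM in LP libraries, at 331, 308 and 320 CPM in HP libraries and at 321, 317 and 297 CPM in HA libraries, with the smallest SD of log2 CPM of all members (0.048). Its relative Cadps2 stood at 89.4, 76.8 and 72.0 CPM in LP libraries, at 93.9, 88.9 and 87.4 CPM in HP libraries and at 83.1, 92.7 and 81.4 CPM in HA libraries. LP replicate 1 overlapped with HP, and the estimate for HP against LP was 0.18 (SE 0.080, adjusted p 0.81 by edgeR). It was 0.28 without LP replicate 1, 0.12 without LP replicate 3 and 0.32 without LP replicates 1 and 2.

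Unc13b, the gene of the priming factor Munc13-2, stood at 18.9, 21.6 and 22.8 CPM in LP libraries, at 21.9, 21.7 and 19.9 CPM in HP libraries and at 22.9, 23.9 and 25.5 CPM in HA libraries. All HA libraries lay above all HP libraries. Against LP the order depended on the scaling: HA replicate 1 lay just above LP replicate 3 by TMM, but below it by library totals, at 22.77 against 22.93 CPM. The estimates were 0.19 for HA against HP (SE 0.088, adjusted p 0.84 by edgeR) and 0.19 for HA against LP (SE 0.088, adjusted p 0.776). Without LP replicates 1 and 2 the latter was 0.071. Unc13a, the main priming factor of glutamatergic synapses, ranged from 158 to 195 CPM and Unc13c, best known from cerebellar granule cells, from 64.9 to 89.6 CPM, with overlapping groups. Unc13a shares 495 exon bases with Colgalt1 on the other strand, and a count without strand cannot separate them there.

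In the active zone scaffold, Rims1, the long RIM that recruits calcium channels and vesicles, stood at 93.7, 88.9 and 86.3 CPM in LP libraries, at 90.2, 82.5 and 89.1 CPM in HP libraries and at 86.4, 78.0 and 75.7 CPM in HA libraries. The groups overlapped, by less than 0.1 CPM between LP and HA, where library totals gave no overlap. The estimates were -0.16 for HA against LP (SE 0.061, adjusted p 0.756 by edgeR) and -0.12 for HA against HP (SE 0.061, adjusted p 0.84). The latter was -0.082 without HA replicate 3 and -0.19 without HA replicate 1. Rims3 stood at 413, 388 and 376 CPM in LP libraries, at 411, 401 and 424 CPM in HP libraries and at 400, 388 and 382 CPM in HA libraries. All HA libraries lay below all HP libraries, by less than 1 CPM at the closest, with an estimate of -0.079 (SE 0.046, adjusted p 0.84 by edgeR). Rims2, the second long RIM, ranged from 93.6 to 111 CPM, and the giant scaffold genes Bsn (bassoon) and Pclo (piccolo) from 130 to 162 CPM and from 176 to 212 CPM, with overlapping groups.

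Of 10 count ratios fixed within families, not divided by length, the log2 ratio of Rims3 to Rims1 was the one whose LP libraries stood apart from both other groups. It was 2.14, 2.12 and 2.12 in LP, 2.19, 2.28 and 2.25 in HP, and 2.21, 2.31 and 2.34 in HA. The difference was 0.11 for HP against LP and 0.16 for HA against LP, each with an exact permutation p of 0.1, the smallest that 3 against 3 libraries can give. The log2 ratio of Cadps2 to Cadps was 0.20 higher in HP than in LP (exact permutation p 0.1), and that of Vamp1 to Vamp2 was 0.056 higher in HA than in LP (exact permutation p 0.1). The smallest p after Benjamini-Hochberg adjustment over the 30 tests was 0.75. At this number of libraries no ratio could have passed 0.05, so the ratios are given as values.

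Among genes of the vesicle itself, Sv2c, the SV2 protein gene of striatal and other basal ganglia neurons, had the second smallest p-value of the members in HP against LP. It stood at 137, 150 and 109 CPM in LP libraries, at 103, 99.8 and 121 CPM in HP libraries and at 111, 108 and 101 CPM in HA libraries, and LP replicate 3 lay inside the range of the other groups. The estimates were -0.29 for HP against LP (SE 0.109, adjusted p 0.803 by edgeR) and -0.31 for HA against LP (SE 0.109, adjusted p 0.756). Its high libraries were LP replicates 1 and 2, the libraries highest in striatal markers. Without LP replicate 2 alone the estimate for HP against LP was -0.19. Without both the estimates were -0.015 and -0.036, each over 1.5 times closer to 0.

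Sv2a, the widely expressed SV2 gene, stood at 821, 762 and 776 CPM in LP libraries, at 810, 698 and 817 CPM in HP libraries and at 808, 759 and 691 CPM in HA libraries, with overlapping groups. Syn2, of the synapsins that tether vesicles to actin, was among the 3 steadiest members, at 511, 474 and 470 CPM in LP libraries, at 473, 445 and 470 CPM in HP libraries and at 469, 476 and 442 CPM in HA libraries. Syn1, whose promoter motifs are printed above, ranged from 278 to 342 CPM, Syp from 732 to 896 CPM and Sv2b from 75.5 to 89.1 CPM, all with overlapping groups. Syn3 ranged from 10.3 to 15.3 CPM and is uncertain, because it shares 1733 exon bases with Timp3, which lies on the other strand and had a mean of 1926 counts against 256.6 for Syn3.

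Rab3a stood at 526, 482 and 499 CPM in LP libraries, at 506, 462 and 512 CPM in HP libraries and at 497, 497 and 461 CPM in HA libraries, and the groups overlapped. Rab3c, a second RAB3 of secretory vesicles, stood at 353, 390 and 355 CPM in LP libraries, at 459, 351 and 428 CPM in HP libraries and at 390, 333 and 310 CPM in HA libraries. HP replicate 2 lay below HP replicates 1 and 3 and overlapped with HA. The estimate for HA against HP was -0.26 (SE 0.105, adjusted p 0.84 by edgeR), the smallest unadjusted p of the members in that comparison (0.0309 by edgeR), and it was -0.19 without HA replicate 3. Rph3a, the gene of the RAB3 effector rabphilin, ranged from 282 to 337 CPM with overlapping groups. Sncb, a chaperone-like presynaptic protein gene, stood at 302, 257 and 276 CPM in LP libraries, at 285, 241 and 284 CPM in HP libraries and at 268, 256 and 209 CPM in HA libraries, with overlapping groups.

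Across the members, more estimates lay below 0 than above it in each comparison, by small amounts. In HP against LP 27 of 37 estimates (73%) lay below 0 with a median of -0.030, against 50.9% and -0.0024 for all genes tested. In HA against HP 33 of 37 (89.2%) lay below 0 with a median of -0.062, against 49.1% and 0.0027. In HA against LP 32 of 37 (86.5%) lay below 0 with a median of -0.086, against 48.1% and 0.0057. Other lists lay below 0 as well. Of 8 general neuron markers, 5, 8 and 7 had estimates below 0 in the 3 comparisons in that order (medians -0.021, -0.045 and -0.066), and of 8 oligodendrocyte genes 0, 8 and 8 (medians 0.21, -0.32 and -0.089). Each group serves in 2 of the comparisons, so the 3 are not independent, and members expressed by the same neurons are not replicates.

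These counts depended on single libraries. HA replicate 3 was the lowest of all 9 libraries for 19 of the 37 members and the lowest of the HA libraries for 30, and HP replicate 2 was the lowest of the HP libraries for 29. LP replicate 1 was the highest of all 9 for 12 members. Without HA replicate 3 the count below 0 in HA against HP was 22 of 37, with a median of -0.027. Without HP replicate 2 the count in HP against LP was 17 of 37, with a median of 0.0056, and leaving out LP replicates 1 and 2 gave 18 of 37. In HA against LP it was 30 of 37 without HA replicate 3, with a median of -0.046, and 27 of 37 without LP replicates 1 and 2, with a median of -0.041. Leaving out HA replicate 1 gave medians of -0.13 in HA against LP and -0.099 in HA against HP. Within HP and HA, a fit with the title code as a term tested 36 of the members. It left 33 of 36 estimates (91.7%) below 0 in HA against HP, with a median of -0.064.

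HA replicate 3 was also the library with the most meningeal signal. There the members deviated from their mean over the 9 libraries by -0.156 log2 units on average, and 8 general neuron markers deviated by -0.158. In HP replicate 2 the members deviated by -0.105 and the neuron markers by -0.0332, and its meningeal sum was 193.3 CPM. That mean of the neuron markers includes Snhg11, at its highest of the 9 libraries there (1153 CPM). Tubb3 was at its lowest (480 CPM), and Nefm (200 CPM) and Nefl (256 CPM) lay above only HA replicate 3. The rest of the list was less low there. Rbfox3 (112 CPM) lay above HA replicates 1 and 3, and Stmn2 (463 CPM) above HA replicates 2 and 3. Elavl3 (251 CPM) lay above LP replicate 3 and HA replicates 2 and 3. Elavl4 (111 CPM) lay above LP replicate 2, HP replicate 3 and HA replicates 2 and 3. In LP replicate 3, with the second highest meningeal sum, the members deviated by -0.014. The part of these markers in the members' values was not tested.

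**Figure D4:**
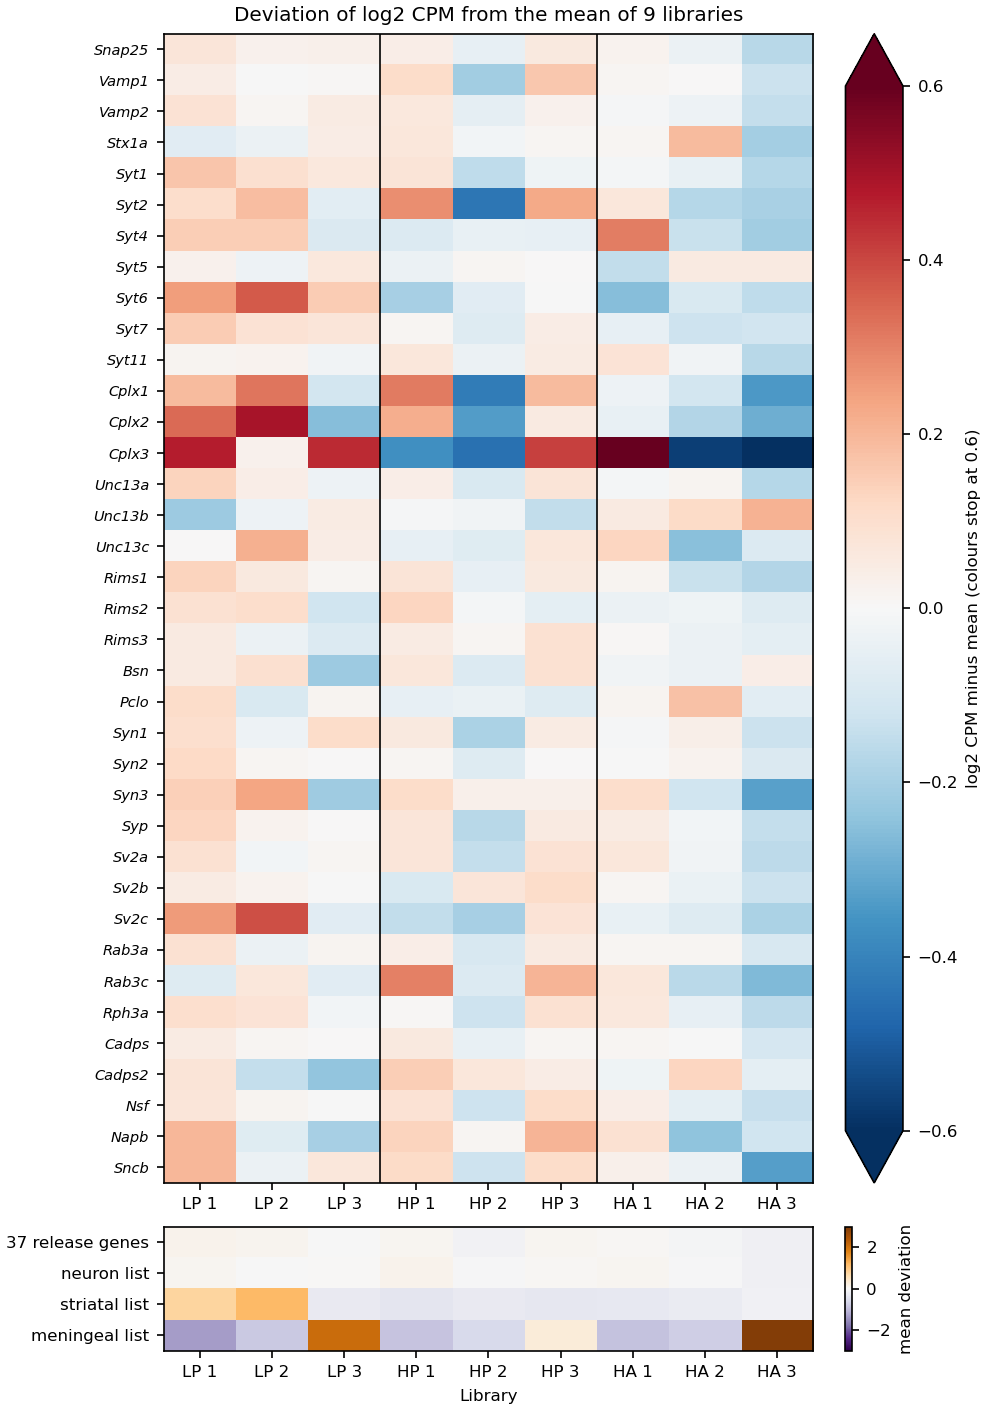
Deviation of log2 CPM from the mean of the 9 libraries for each member (rows, upper panel) and the mean deviation of 4 gene lists (lower panel, on a wider colour scale), with vertical lines between groups. HA replicate 3 and HP replicate 2 are blue for most members, Cplx1, Cplx2, Cplx3 and Syt2 swing most, and the meningeal list is highest in LP replicate 3 and HA replicate 3.

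The counts of members whose groups do not overlap were made on TMM-scaled CPM and moved with the scaling. In HP against LP 2 of 37 members had no overlap (5.41%, both lower: Syt6 and Syt7), against 11.8% of all genes tested (5.93% higher and 5.83% lower). In HA against HP 2 had none (5.41%, Unc13b higher and Rims3 lower), also against 11.8% (5.92% higher and 5.89% lower). In HA against LP 6 had none (16.2%), Unc13b higher and Syt6, Syt7, Syt1, Vamp2 and Snap25 lower, against 10.9% of all genes (5.40% higher and 5.51% lower). The first 2 shares lie below the background and the last above it, and no test of these shares was made. With library totals in place of TMM, HP against LP had 4 such members (10.8%, Syt1, Syt6, Syt7 and Syn2, all lower) against 11.7% of all genes, and HA against HP the same 2 (5.41%) against 11.6%. HA against LP then had 5 (13.5%, Vamp2, Syt1, Syt6, Syt7 and Rims1, all lower) against 11.1% of all genes. Syt6 and Syt7 stood clear of LP in both comparisons under both scalings.

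Members also differed in their spread over the libraries, which holds group differences and technical spread too. The SD of log2 CPM over the 9 libraries had a median of 0.102 over the members and ran from 0.048 for Cadps to 0.548 for Cplx3, whose counts are few. Only 5 of the 37 members, Syt5, Rab3a, Syn2, Rims3 and Cadps, lay below the median SD of genes of like level. Syt6 had an SD of 0.213 over all libraries but of 0.0984 within groups, and Syt7 of 0.0969 and 0.0487, whereas for Cplx1, Cplx2 and Syt2 the 2 values were close (0.273 and 0.276, 0.297 and 0.29, 0.234 and 0.255).

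A further 48 presynaptic genes that are not members were counted in the same fit, among them genes of syntaxin-1B, Munc18, transmitter transporters, presynaptic calcium channels and endocytic proteins. Of these, 47 passed the filter and 0 were called in any comparison by edgeR, with 3, 1 and 4 at an unadjusted p under 0.05 in the comparisons HP against LP, then HA against HP, then HA against LP. DESeq2 called 0 in each. Estimates lay below 0 for 31, 29 and 35 of the 47, with medians of -0.037, -0.037 and -0.056.

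In that list Synpr, which encodes the vesicle protein synaptoporin, stood at 74.2, 82.3 and 70.0 CPM in LP libraries, at 65.5, 66.5 and 67.9 CPM in HP libraries and at 64.0, 63.7 and 58.0 CPM in HA libraries. None of its 3 groups overlapped with another, and the estimates were -0.18 for HP against LP (adjusted p 0.792 by edgeR) and -0.29 for HA against LP (adjusted p 0.645). Erc2, an active zone gene, stood at 93.6, 94.8 and 88.1 CPM in LP and at 85.7, 85.6 and 83.1 CPM in HA. HP libraries held 91.0, 87.3 and 91.1 CPM, and the estimate for HA against LP was -0.12 (adjusted p 0.756 by edgeR). Slc17a8, the vesicular glutamate transporter VGLUT3 gene, stood at 3.99, 3.41 and 4.84 CPM in LP and at 5.29, 5.70 and 5.23 CPM in HP. HA libraries held 5.16, 4.44 and 5.97 CPM, and the estimate for HP against LP was 0.41 (adjusted p 0.81 by edgeR). Rab3d, a RAB3 of exocrine and endocrine granules, stood at 6.18, 6.63 and 6.80 CPM in HP and at 7.69, 7.43 and 10.9 CPM in HA. LP libraries held 6.96, 7.01 and 8.60 CPM. Its highest LP and HA libraries were LP replicate 3 and HA replicate 3, those with most meningeal signal. The estimate for HA against HP was 0.41 (adjusted p 0.84 by edgeR), and the part of meningeal tissue was not tested.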

How the data were processed

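The authors deposited, for the same 9 hypothalamus libraries, raw read counts per gene and FPKM values. The input was 3 µg of RNA and the kit is not described as stranded, per the labels' protocols. HISAT2 2.0.5, featureCounts 1.5.0-p3, DESeq2 1.16.1 and the build mm9 are named in the submitters' processing notes. However, 98.3% of the gene identifiers shared with GENCODE M21 (GRCm38), and 35 of 37 members, have its start and end. Deposited FPKM divided by FPKM recomputed from counts, gene length and library total gave 0.981 to 1.01.

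Counts of all 9 libraries were fitted with edgeR 4.0.16 in R 4.3.3 (filterByExpr, TMM, group as the only term), tested two-sided with the quasi-likelihood F test and adjusted by Benjamini-Hochberg over all genes, with a threshold of 0.05. The script was tested on simulated data. The biological coefficient of variation was 14.1%. An SE is the size of an estimate over the root of its F. Log2 CPM has a prior count of 2. Family ratios are log2 ratios of counts with 0.5 added. The members and gene lists were chosen with earlier results of these data known. Values per library are given for the member of highest FPKM in each role group, the 4 of smallest p in each comparison, the 5 of largest SD (mean of at least 1 CPM) and the 3 of smallest SD, and for the 2 other presynaptic genes of smallest p in each comparison. Within groups, pairs of libraries differed by chi-square per degree of freedom of 4.727 to 25.83, more than the sampling of reads alone gives. This cannot show whether any pair came from the same animal or RNA. Libraries with the same replicate number had deviations that correlated by 0.256, 0.144 and 0.486 in HA and LP, which is read from the data only. Replicate 2 did not correlate best with its own number there. The highest value joined LP replicate 3 and HA replicate 3, the libraries with most meningeal signal. Alternatives were DESeq2 1.42.0, library totals, no filter, a replicate block, the title code as a term, only the 6 libraries compared, and libraries left out. Leaving out LP replicates 1 and 2, overlap by library totals, and lengths by transcript were chosen after seeing the data.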

Additional observations from a re-analysis of the deposited data

How the results depend on the processing

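No member or other presynaptic gene was called under any alternative run, except Syt6 in HA against LP, where 1 member was called by DESeq2 (log2 -0.43) and 1 without the filter on low counts (-0.42). Estimates of the 12 members' differences of smallest p kept their direction under every alternative and, but for those 2 values of Syt6, did not pass the threshold. The fits without LP replicates 1 and 2 rest on 1 LP library. The members' median in HP against LP changed sign without HP replicate 2 (0.0056) and without LP replicates 1 and 2 (0.0018). Over all genes, HP against LP called 2 genes, but 32 by DESeq2, 53 without the filter, 1 with library totals, 4 with the replicate block and 4 in a fit of only the 6 libraries. HA against HP called 2, but 8 by DESeq2 and 5 without the filter. HA against LP called 0, but 27 by DESeq2, 41 without the filter and 1 in a fit of only the 6 libraries. Leaving out each library in turn gave 1 to 21 genes in HP against LP, 1 to 9 in HA against HP and 0 to 14 in HA against LP. Without LP replicate 3 and HA replicate 3 together, 37, 10 and 23 genes were called, and the cause was not tested. The replicate block changed no other call. Same-numbered libraries correlated by 0.137, -0.0276 and 0.159 in HP and LP and by 0.0817, 0.00387 and 0.118 in HA and HP. Replicate 2 did not correlate best with its own number in any comparison, HA against LP included, so the numbers were not taken as pairs. HP and LP libraries of a number share only that number, while HA and HP libraries of a number also share a title code. The number of ratios that passed stayed 0, but this design could not reach 0.05. Depth limits Cplx3, with 6 to 24 counts per library.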
